A study of Mus musculus with 12 samples.

Results

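CTCF and the cohesin complex shape the folding of chromosomes, and their RNA was examined here in newly transcribed and total RNA of mouse embryonic stem cells (mESCs). The group comprised 10 genes picked by name: Ctcf, the ring subunits Smc1a, Smc3, Rad21, Stag1 and Stag2, the loader genes Nipbl and Mau2, and the Pds5 genes Pds5a and Pds5b. All rows whose transcript belongs to one of these genes in GENCODE M1 were used, which gave 50 exonic and 50 intronic rows of 121429 and 91702 in the deposited table, and 10 of 34079 genes. Stag1 accounted for 16 of the 50 transcripts and Stag2 for 8, whereas Rad21, Nipbl and Pds5a had 1 each.

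Cohesin is a ring in which the SMC proteins Smc1a and Smc3 are closed by the kleisin Rad21, and Rad21 is bound by either Stag1 or Stag2. Nipbl with its partner Mau2 loads the ring onto DNA and drives loop extrusion, Pds5 proteins bind the loaded ring and take part in both its release and its stabilization, and the zinc finger protein CTCF stops extruding cohesin at loop anchors and boundaries of topologically associating domains. In mESCs the complex is also needed for sister chromatid cohesion in a rapid cell cycle.

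The cells were the DTCM23/49 XY line of male mESCs, grown with serum and LIF on gelatin. A single culture was divided to give 2 biological replicates, so the replicates are passages of one line. The 6 labeled libraries, like the 6 total ones, come from these 2 replicates at 3 labeling times and are not 6 biological replicates. The p-values rest on the spread between these libraries and not on a spread between lines. All 12 libraries came from cells that had received 200 µM 4-thiouridine (4sU), a uridine analog built into RNA during transcription, for 15, 30 or 60 min. At each time labeled RNA, pulled down through biotin on its 4sU, and total RNA were sequenced in both replicates, giving 6 groups of 2 libraries, and unlabeled cells were not analysed here.

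The deposited values are abundances per length that sum to between 19988830 and 19992902 in every library. A value is therefore a share of the RNA in a library, a difference between labeled and total RNA is a difference in share, and the depth of each library and the counting error cannot be read from the values. Intronic rows held between 6.53% and 7.41% of the signal in total RNA and between 6.99% and 10.8% in 4 labeled libraries, but 14.8% and 13.9% in the labeled libraries of replicate 1 at 15 and 60 min. These 2 libraries are referred to as the intron-rich libraries, and the main results on introns are given with and without them. All 8 embryonic stem cell markers examined passed the filter on low values, with a summed exonic level between 17415 and 29988, whereas 7 fibroblast feeder markers summed to between 23.9 and 55.8, with no value for Dcn, Col3a1, Postn and Lum in any library. Primitive endoderm markers summed to between 6.27 and 23.1 and trophectoderm markers to between 13.8 and 29.6. Neural and mesoderm markers summed to between 15.8 and 180. Thy1 of the feeder markers and Pax6 of the neural ones passed the filter.

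The level of each gene was first compared in total RNA by its most abundant protein-coding transcript. Values of overlapping transcripts appeared not to be divided between them, so a sum over a gene may grow with its number of annotated transcripts. In 5708 genes with 2 or more transcripts past the filter, the second highest stood at a median of 0.835 times the highest. Smc3 was highest at 1273 ± 91.2 units (SD, n = 6), followed by Rad21 at 896 ± 67.3, Pds5a at 716 ± 138, Stag1 at 607 ± 44.9, Smc1a at 564 ± 76.3 and Nipbl at 479 ± 103. Lower levels were found for Ctcf at 297 ± 46.7, Pds5b at 265 ± 33.4, Stag2 at 130 ± 32.7 and Mau2 at 45.1 ± 2.60. Neighbors from Rad21 to Nipbl overlapped in their ranges over the 6 total libraries, as did Ctcf and Pds5b, whereas Smc3 and Rad21, Nipbl and Ctcf, Pds5b and Stag2, and Stag2 and Mau2 did not overlap. Smc3 stood at percentile 95.0 of 45537 transcripts that passed the filter and Mau2 at 32.7. The Stag1 transcript is a short coding model of 853 nucleotides in 8 exons, so its level need not be that of full-length Stag1.

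Alternative subunits differed in level in all 12 libraries. By these transcripts, Stag1 was on average 4.98 ± 1.39 times as abundant as Stag2 in total RNA (SD, n = 6), with a ratio from 3.49 to 6.79, and 5.41 ± 2.52 times in labeled RNA. This ratio sets the short Stag1 model against a Stag2 transcript of 33 exons. The Stag1 transcript ENSMUST00000041418, also of 33 exons, stood lower, at 384 ± 64.1 units in total RNA against 130 ± 32.7 for Stag2. Pds5a exceeded Pds5b by 2.69 ± 0.333 times (total) and 3.09 ± 0.166 times (labeled). For Nipbl and its partner Mau2 the ratios were 10.7 ± 2.76 and 8.17 ± 1.53. Smc3 to Smc1a, which form the ring in equal numbers, stood at 2.28 ± 0.219 and 1.90 ± 0.241, with ranges of 2.10 to 2.70 in total and 1.504 to 2.21 in labeled RNA that overlapped. This ratio depends on the Smc1a transcript used. The Smc1a transcript ENSMUST00000145518, a nonsense-mediated decay model, stood at 922 ± 51.2 units in total RNA against 564 ± 76.3 for the coding one.

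**Figure D1:**
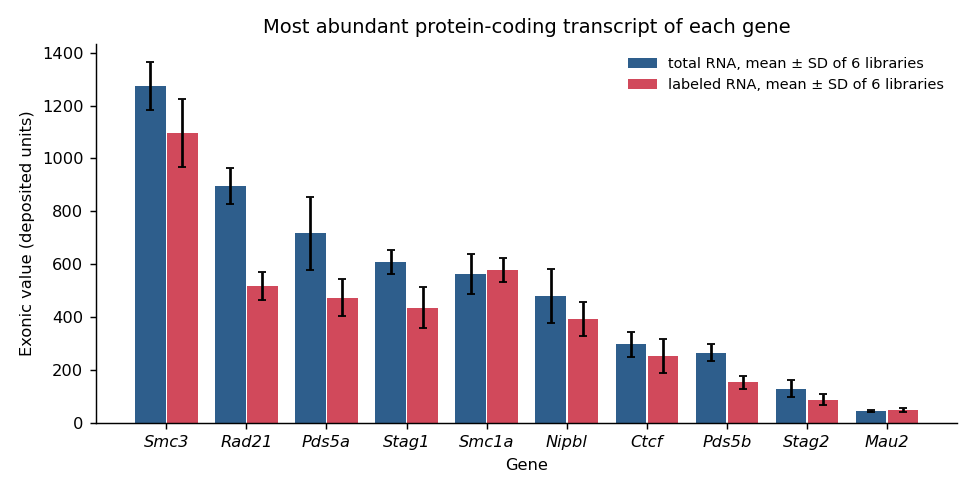
Exonic values (y axis, deposited units) of the most abundant protein-coding transcript of each gene (x axis), as mean ± SD of 6 total RNA libraries (blue) and 6 labeled RNA libraries (red). Smc3 had the highest bar in total RNA, at 1273 units, and Mau2 the lowest, at 45.1.

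Among RNA molecules that cells keep for long, those made during the short pulse are a small part, so the share of a gene in labeled relative to total RNA addresses how its new RNA relates to its stored RNA. Exonic sums per gene were compared between 6 labeled and 6 total libraries with limma, with labeling time as a covariate and Benjamini-Hochberg adjustment over 13977 genes at 0.05. Exonic RNA of 5 of the 10 genes was lower in labeled RNA and that of 0 was higher. Over all genes tested, 11.6% were called lower, 5.28% higher and 16.8% in either direction. The median log2 difference of the 10 genes was -0.41, and that of all genes tested was -0.05. Counting the 10 genes for which the 6 labeled libraries all lay below the 6 total libraries gave 3 genes, Rad21, Stag1 and Pds5b, against 7.28% of all genes, and the reverse order was found for 0 of the 10 and for 2.72% of all genes.

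Rad21, the kleisin that closes the ring, differed most. Its exonic value was 432, 526 and 594 units in labeled RNA (lowest, median and highest of 6) and 831, 872 and 1010 in total RNA. Every labeled library lay below every total library. The labeled mean was 57.7% of the total mean, and the log2 difference was -0.80 ± 0.10 (SE, adjusted p = 0.00123, limma), which placed Rad21 at percentile 2.69 of all genes.

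The other 2 ring subunits of the core, Smc1a and Smc3, did not pass the test. Smc1a summed to 1808, 2142 and 2275 units in labeled RNA and to 1972, 2356 and 2640 in total RNA, with a log2 difference of -0.14 ± 0.09 (SE, limma adjusted p = 0.296). Smc3 summed to 2017, 2733 and 3016 units in labeled RNA and to 2330, 2946 and 3488 in total RNA, with a log2 difference of -0.13 ± 0.13 (SE, limma adjusted p = 0.527). In both genes the labeled and total libraries overlapped, and with quantile normalization both differences were slightly above 0.

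Both Stag genes were lower in labeled RNA. Stag1 summed to 2139, 2786 and 3253 units in labeled RNA and to 3370, 4037 and 4363 in total RNA, with no overlap and a log2 difference of -0.54 ± 0.12 (SE, limma adjusted p = 0.0107). Stag2 summed to 266, 331 and 431 units in labeled RNA and to 364, 556 and 652 in total RNA, with a log2 difference of -0.65 ± 0.17 (SE, limma adjusted p = 0.0239). The Stag2 groups overlapped through the total library of replicate 2 at 15 min, which lay below the highest labeled library and below 394 units in the labeled library of replicate 1 at 60 min.

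Both Pds5 genes, whose products bind the closed ring, were lower as well. Pds5b summed to 406, 579 and 733 units in labeled RNA and to 799.6, 972 and 1260.1 in total RNA, with no overlap and a log2 difference of -0.75 ± 0.15 (SE, limma adjusted p = 0.00817). Pds5a stood at 374, 488 and 566 units in labeled RNA and at 533, 750.2 and 877 in total RNA, with a log2 difference of -0.59 ± 0.15 (SE, limma adjusted p = 0.0222). Only the highest labeled library of Pds5a, replicate 2 at 15 min, reached into the range of total RNA.

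The loader genes and Ctcf did not pass. Nipbl stood at 319, 384 and 479 units in labeled RNA and at 351, 508 and 618 in total RNA, with a log2 difference of -0.27 ± 0.16 (SE, limma adjusted p = 0.263). Mau2 summed to 62.7, 88.2 and 102 units in labeled RNA and to 72.3, 80.5 and 84.3 in total RNA, with a log2 difference of 0.07 ± 0.13 (SE, limma adjusted p = 0.756). Ctcf summed to 708, 752 and 1051 units in labeled RNA and to 880.5, 947 and 989 in total RNA, with a log2 difference of -0.26 ± 0.10 (SE, limma adjusted p = 0.104). For Ctcf, 5 of 6 labeled libraries lay below all total libraries, and the remaining one, replicate 2 at 15 min, lay above all of them. Without that library Ctcf passed, at a log2 difference of -0.34 and a limma adjusted p of 0.0143.

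**Figure D2:**
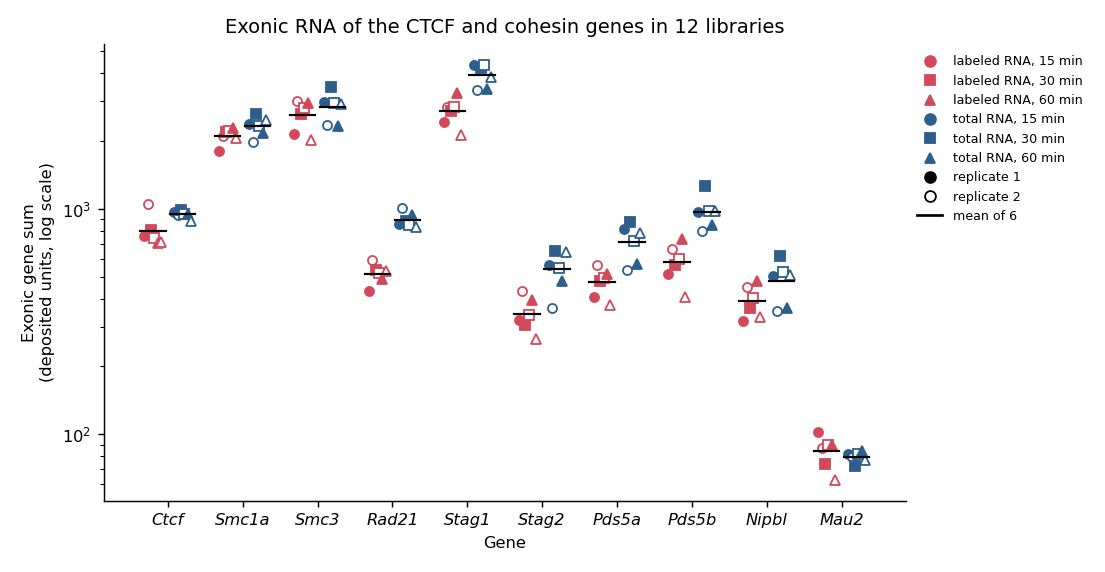
Exonic sums per gene (y axis, deposited units, log scale) in each of 12 libraries for the 10 genes (x axis), with labeled RNA in red, total RNA in blue, marker shape for labeling time, filled and open markers for replicates 1 and 2, and a line at the mean of 6. The red markers of Rad21, Stag1 and Pds5b all lie below the blue ones, and those of the other genes overlap. Sums may depend on the number of annotated transcripts and should not be compared between genes.

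When libraries were paired by labeling time and replicate number, 3 genes passed, Rad21, Stag1 and Pds5b, while Stag2 and Pds5a had adjusted p-values of 0.0782 and 0.0746 in limma, and 1270 instead of 2353 genes were called in all. Leaving out single libraries gave between 3 and 6 called genes of the 10, and between 10.3% and 20.97% of all genes. There were 3 without the labeled libraries of replicate 1 at 15 min and of replicates 1 or 2 at 30 min, or without the total libraries of replicate 1 at 15 or 30 min or of replicate 2 at 60 min. Rad21, Stag1 and Pds5b kept an adjusted p of at most 0.00561, 0.0339 and 0.0272 over the 12 libraries left out in turn. It was 6, with Ctcf added, without the labeled library of replicate 2 at 15 min. With all libraries of replicate 1 or of replicate 2 left out, which leaves 3 labeled and 3 total libraries, 0 of the 10 genes were called. Of all genes, 0% were called without replicate 1 and 0.0358% without replicate 2. Without the intron-rich libraries the same 5 genes were called, where 16.7% of all genes were called.

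In single transcripts, 45 of the 50 passed the filter of a mean of 20 units, and 19 of these were lower and 0 higher in labeled RNA, where 12% of 45537 transcripts were lower, 5.28% higher and 17.3% called in either direction. In 9 the labeled libraries all lay below the total libraries, as in 7.61% of all transcripts, and in 0 all above, as in 2.62%. The 19 were 7 of 13 tested for Stag1, 5 of 7 for Stag2, 5 of 6 for Pds5b and the single transcripts of Rad21 and Pds5a. Transcripts of a gene share exons and reads and are not independent. Differences below 0 were found in 42 of 45, and the exceptions were both Mau2 transcripts and the coding Smc1a transcript ENSMUST00000045312, at 0.04. With libraries paired, 7 transcripts were called, where 9.82% of all transcripts were called, and with single libraries left out between 8 and 24, where it was between 10.4% and 22.9%. There were between 8 and 11 without the labeled library of replicate 1 at 15 min or either one at 30 min, or without the total library of replicate 1 at 15 min, either one at 30 min or that of replicate 2 at 60 min.

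The spread within a gene differed between genes. The 6 Pds5b transcripts ranged from -0.79 to -0.64 on the log2 scale and the 13 of Stag1 from -0.69 to -0.29, while the 7 of Stag2 ranged from -1.10 to -0.47 and the 6 of Smc1a from -0.43 to 0.04. The lowest was ENSMUST00000123245 of Stag2, a coding model of 3 exons, at 14.4 ± 2.78 units in labeled and 32.3 ± 8.05 in total RNA (SD, n = 6). The groups did not overlap, and the log2 difference was -1.10 ± 0.21 (SE, limma adjusted p = 0.00584). This transcript passed the filter by its mean over all libraries, 23.3 units, while its labeled mean lay below the filter value. Among the most abundant transcripts, ENSMUST00000149771 of Stag1, a processed transcript, differed by -0.53 ± 0.13 (SE, limma adjusted p = 0.0174). ENSMUST00000145518 of Smc1a, a nonsense-mediated decay model, stood at 794 ± 42.4 units in labeled and 922 ± 51.2 in total RNA without overlap, at a limma adjusted p of 0.101. ENSMUST00000157053 of Smc3, a retained-intron model, overlapped between groups at a log2 difference of -0.05.

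**Figure D3:**
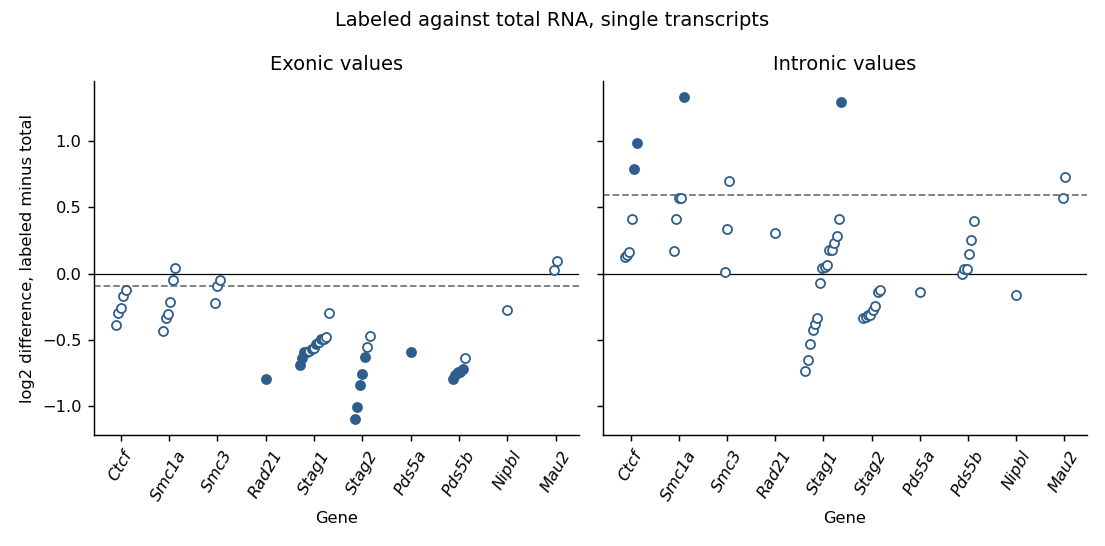
Log2 difference between labeled and total RNA (y axis) of single transcripts of the 10 genes (x axis), for exonic values of 45 transcripts (left) and intronic values of 49 (right). Filled markers passed an adjusted p of 0.05 in limma, and the dashed line is the median of all transcripts tested. The 19 filled markers on the left lie below 0 and the 4 on the right above 0.

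The windows around the annotated start of the genes are shown for members that were lower in labeled RNA, namely Stag1, Pds5a and Pds5b, and for Ctcf and Smc3, which did not pass and share a motif with them. RefSeq windows run from 250 bases before to 50 bases after the start, on GRCm38.p6, and were found for 7 of the 10 genes (not Rad21, Stag2 or Nipbl). Their positions are chr9:100643198-100643497 for Stag1 (plus strand), chr5:65698187-65698486 for Pds5a (minus strand), chr5:150673577-150673876 for Pds5b (plus strand), chr8:105636288-105636587 for Ctcf (plus strand) and chr19:53600146-53600445 for Smc3 (plus strand). The Stag1 window lies at a start within the gene. Capitals mark AANATGGCG, the core of the YY1 motif, and TTGGCGCC, a form of the E2F motif, on either strand.
Stag1: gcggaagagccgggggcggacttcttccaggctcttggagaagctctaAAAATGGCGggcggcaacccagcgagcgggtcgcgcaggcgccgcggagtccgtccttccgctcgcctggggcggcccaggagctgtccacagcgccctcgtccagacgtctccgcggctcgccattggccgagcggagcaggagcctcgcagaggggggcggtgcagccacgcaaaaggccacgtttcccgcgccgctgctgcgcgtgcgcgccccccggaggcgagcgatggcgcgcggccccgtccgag
Pds5a: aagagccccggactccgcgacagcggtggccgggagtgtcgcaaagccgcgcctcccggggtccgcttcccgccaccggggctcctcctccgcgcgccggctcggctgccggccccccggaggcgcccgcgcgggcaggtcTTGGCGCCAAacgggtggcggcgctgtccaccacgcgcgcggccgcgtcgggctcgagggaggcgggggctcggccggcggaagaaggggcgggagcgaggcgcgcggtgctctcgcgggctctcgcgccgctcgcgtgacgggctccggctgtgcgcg
Pds5b: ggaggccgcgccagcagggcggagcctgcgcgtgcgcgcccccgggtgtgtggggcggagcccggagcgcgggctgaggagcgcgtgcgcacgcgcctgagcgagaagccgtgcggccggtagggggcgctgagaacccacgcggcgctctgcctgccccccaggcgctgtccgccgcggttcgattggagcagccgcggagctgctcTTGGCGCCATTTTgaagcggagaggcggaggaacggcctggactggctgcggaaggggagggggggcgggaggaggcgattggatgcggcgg
Ctcf: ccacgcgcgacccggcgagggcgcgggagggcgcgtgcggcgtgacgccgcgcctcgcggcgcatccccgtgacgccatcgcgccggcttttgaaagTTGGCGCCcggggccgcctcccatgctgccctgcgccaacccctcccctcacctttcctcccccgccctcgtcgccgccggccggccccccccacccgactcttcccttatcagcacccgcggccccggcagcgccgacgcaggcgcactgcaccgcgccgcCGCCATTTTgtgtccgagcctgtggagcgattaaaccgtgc
Smc3: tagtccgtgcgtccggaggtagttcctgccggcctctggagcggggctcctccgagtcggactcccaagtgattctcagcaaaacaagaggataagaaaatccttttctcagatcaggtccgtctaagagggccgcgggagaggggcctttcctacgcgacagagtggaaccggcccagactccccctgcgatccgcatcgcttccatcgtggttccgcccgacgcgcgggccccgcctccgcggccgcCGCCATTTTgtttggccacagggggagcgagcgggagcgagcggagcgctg

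AANATGGCG was present in the windows of 4 of the 7 genes, Stag1, Pds5b, Ctcf and Smc3, and in 2.37% of 32817 windows of the same length. TTGGCGCC was present in 3 of the 7, Pds5a, Pds5b and Ctcf, and in 0.817% of all windows. Both motifs were chosen after these sequences had been seen. In Pds5b the motifs overlap, with TTGGCGCC at positions 209 to 216 of the window and AANATGGCG on the opposite strand at 213 to 221, and in Pds5a TTGGCGCC occurs on both strands with overlap. Genes with a match included both genes that were lower and genes that did not pass.

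Other genes that act on cohesin or on chromosome structure were compared in the same fit. Of 12 cohesin regulators, 3 were lower and 0 higher in labeled RNA, with a median log2 difference of -0.14. Wapal, which releases cohesin from DNA, was lowest at -0.81 ± 0.09 (SE, limma adjusted p = 0.000536), followed by Espl1, the separase that cleaves Rad21, at -0.59 ± 0.13 (SE, limma adjusted p = 0.0109), and Sgol2, named after its value was seen, at -0.47 (limma adjusted p = 0.0482). The highest values were 0.14 for Hdac8, the Smc3 deacetylase, and 0.16 for Esco2, an Smc3 acetyltransferase, neither of which passed.

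Of 13 genes of condensin and the SMC5/6 complex, 2 were lower and 0 higher, with a median of -0.31. These were the condensin subunits Ncapd2, at -0.50 ± 0.12 (SE, limma adjusted p = 0.0148), and Smc4, at -0.31, the latter named after its value was seen. Ncapg had a difference of -0.47 and Ncaph of -0.10, and Nsmce4a was highest at 0.16, none past the threshold. Of 11 other architecture factors tested, Top2a, which untangles DNA in mitosis and was named after its value was seen, was lower at -0.38 (limma adjusted p = 0.0386), 0 were higher and the median was -0.28. Chd8 and Top2b had the lowest values, -0.58 and -0.49, and Npm1 and Zfp143 the highest, 0.01 and 0.09, none past the threshold. The meiotic paralogs Stag3, Smc1b and Rec8 passed the filter, at means of 432, 155 and 61.3 units over 12 libraries, with differences of 0.07, -0.11 and -0.45 that did not pass, while Rad21l had no value in 9 libraries and Ctcfl had a mean of 9.05 units.

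Genes known for short-lived and long-lived RNA were set beside them. All 8 short-lived genes tested had values above 0, with 5 higher in labeled RNA and a median of 0.85. Ier2 and Id3 were highest, at 1.36 and 1.34, and Myc and Klf4 lowest, at 0.16 and 0.30. Of 12 long-lived genes 9 were lower, with a median of -0.43. Actb and Aldoa were lowest, at -1.02 and -0.62, and Tpi1 and Ppia highest, at -0.22 and -0.10. The values of the 5 lower cohesin genes, from -0.80 to -0.54, lay within the range of the long-lived genes. So did those of Ctcf, Nipbl, Smc1a and Smc3, which did not pass. The 5 genes are named for low values in this same comparison, and whether their RNA is long-lived was not tested.

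**Figure D4:**
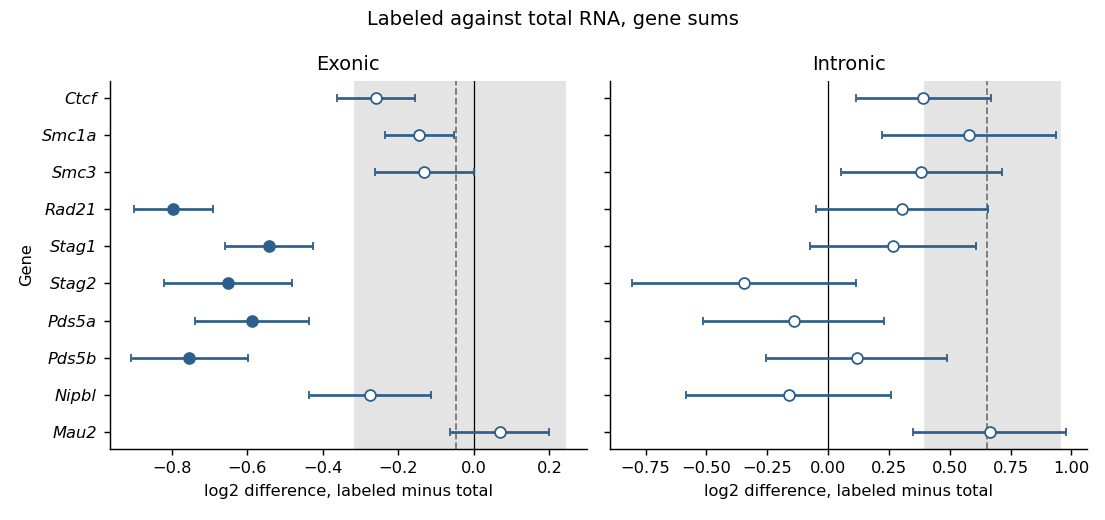
Log2 difference between labeled and total RNA (x axis, ± SE) of exonic (left) and intronic (right) sums of the 10 genes (y axis). Filled markers passed an adjusted p of 0.05 in limma, the dashed line is the median of all genes tested and the gray band spans their quartiles. Exonic values of Rad21, Stag1, Stag2, Pds5a and Pds5b are filled and lie left of the band, and intronic values of Stag2, Pds5a and Nipbl lie below 0 where the median is 0.65.

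Intronic RNA stands for unspliced transcripts, which are enriched in newly transcribed RNA. In labeled relative to total RNA, intronic sums of 30.4% of 14780 genes were called in limma, 30.2% higher and 0.210% lower, and the median log2 difference was 0.65. Of the 10 genes 0 were called in either direction. An unadjusted p under 0.05 in limma was found for 0 of the 10 and for 6685 of all 14780 genes. The log2 differences of the 10 genes ran from -0.35 for Stag2 to 0.66 for Mau2, with a median of 0.29. Mau2 stood at percentile 51.3 of all genes, Smc1a at 42.1 and Ctcf at 24.4, while Pds5b at 8.58, Pds5a at 2.55, Nipbl at 2.37 and Stag2 at 1.06 stood lower. In 0 of the 10 genes did the labeled and total libraries not overlap, whereas labeled lay above total in 16.1% of all genes and below in 0.135%. Mau2 and Smc3 were called higher without the labeled library of replicate 2 at 15 min, and Mau2 without that of replicate 2 at 60 min, settings in which 54.2% and 50.7% of all genes were higher.

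The spread between labeled replicates was large. Stag2 introns summed to 127 and 131 units in the intron-rich libraries, to between 19.3 and 47.8 in the other 4 labeled libraries and to between 51.8 and 74.4 in total RNA. Nipbl introns stood at 34.7 and 37.5 units, between 5.81 and 15.6, and between 13.8 and 18.6. Pds5a introns stood at 57.4 and 59.2 units, between 12.8 and 29.0, and between 23.8 and 36.2. In these 3 genes total RNA thus lay between the intron-rich libraries and most or all other labeled libraries.

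The same split was found for Ctcf, whose introns summed to 328 and 306 units in the intron-rich libraries, to between 134 and 205 in the other labeled libraries and to between 130 and 175 in total RNA. At 15 min replicate 1 exceeded replicate 2 by 6.58 times for Stag2, 5.98 times for Nipbl and 2.41 times for Ctcf, where the median of 14780 genes was 2.74. At 60 min the ratios were 6.42, 5.09 and 2.28, with a median of 2.502. At 30 min the ratios of the 10 genes lay between 0.617 and 1.005, with a median of all genes of 0.806. The introns of the 10 genes held 15.9% and 12.9% of their signal in the intron-rich libraries, between 4.197% and 8.02% in the other labeled libraries, and between 5.08% and 5.86% in total RNA.

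Without the intron-rich libraries, intronic RNA of 3 genes was called lower in labeled RNA, namely Stag2 at -1.15 (limma adjusted p = 0.0016), Nipbl at -0.87 (adjusted p = 0.00907) and Pds5a at -0.75 (adjusted p = 0.00958). This alternative was chosen after the data had been seen. Of all genes, 27.9% were called in this setting and 3.76% were lower. The median of the 10 genes was then -0.26, and that of all genes 0.24. Quantile normalization, which gives all libraries the same distribution, called the same 3 genes lower, at -1.03, -0.86 and -0.83, where 5.41% of all genes were lower. It moved the median of all genes from 0.65 to -0.04 and the share of lower calls from 0.69% to 47.5%, so the sign of an intronic difference depends on the scaling, and the position below the median of all genes does not for these 3.

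**Figure D5:**
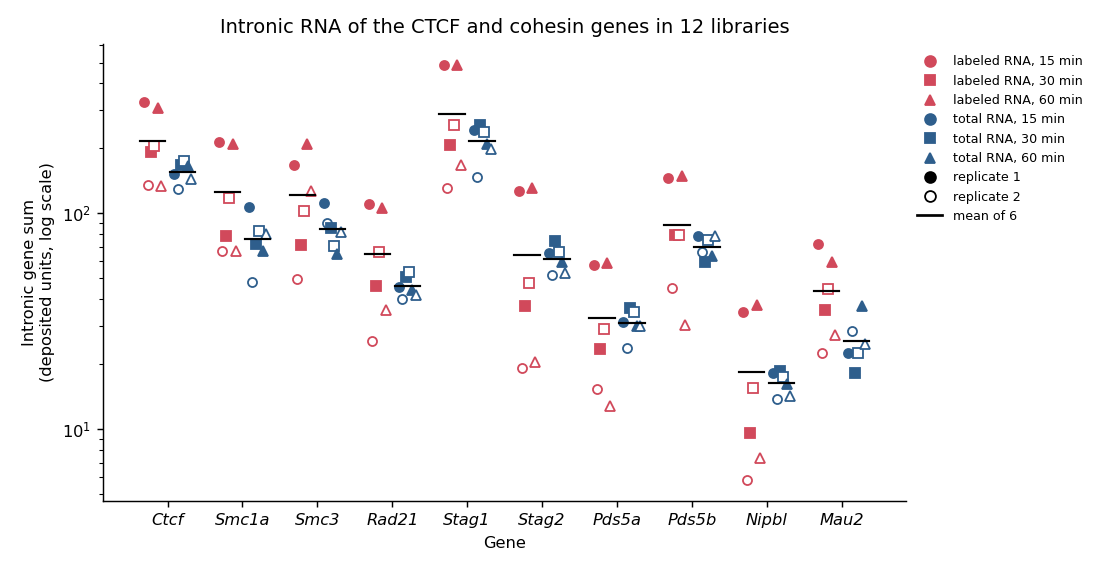
Intronic sums per gene (y axis, deposited units, log scale) in each of 12 libraries for the 10 genes (x axis), with labeled RNA in red, total RNA in blue, marker shape for labeling time, filled and open markers for replicates 1 and 2, and a line at the mean of 6. In each gene the filled red circle and triangle, the labeled libraries of replicate 1 at 15 and 60 min, lie above the other red markers.

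The genes differed in intron length, as annotated in GENCODE M1. The largest intron length of any transcript of the gene was 312 kb in Stag1, 144 kb in Nipbl, 129.5 kb in Pds5b, 122 kb in Stag2 and 78.5 kb in Pds5a, and between 21.2 and 43.5 kb in Mau2, Rad21, Smc3, Smc1a and Ctcf. Across the 10 genes Spearman's rho between this length and the intronic log2 difference was -0.71, and across all 14780 genes it was -0.38. Genes of one table share libraries and are not replicates. The median log2 difference of all genes was 0.91 for introns under 10 kb, 0.58 for 20 to 50 kb, 0.44 for 50 to 100 kb and 0.47 over 100 kb. Of the 5 genes of 20 to 50 kb, Mau2 and Smc1a lay at or above the median of their class, while Ctcf at 0.39, Smc3 at 0.38 and Rad21 at 0.30 lay below it. Pds5a at -0.14 lay below the median of 50 to 100 kb, and Stag2, Nipbl, Pds5b and Stag1 lay below that of over 100 kb.

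Without the intron-rich libraries the class medians of all genes were 0.68 under 10 kb, 0.19 for 20 to 50 kb, -0.0026 for 50 to 100 kb and 0.06 over 100 kb, and rho was -0.43 across all genes and -0.71 across the 10. These are plain differences of mean log2 values, with no model. Mau2 at 0.32 was then the single one of the 10 above the median of its class, with Smc1a at 0.11, Stag1 at -0.20 and Stag2 at -1.05.

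By transcript, introns of 4 of 49 tested were higher in labeled RNA and 0 lower, where 25.2% of 51558 transcripts were called, 25% higher and 0.204% lower. All 4 are short models within longer genes. The introns of ENSMUST00000143150 of Stag1, a retained-intron model with 14.0 kb of introns that starts 237 kb into a gene of 361 kb, stood between 44.3 and 95.5 units in labeled RNA and between 22.2 and 32.4 in total RNA. They differed by 1.30 ± 0.25 on the log2 scale (SE, limma adjusted p = 0.00336), whereas the other 15 Stag1 transcripts ranged from -0.74 to 0.41. The introns of ENSMUST00000135172 of Smc1a, a retained-intron model with 0.995 kb of introns, stood between 7.67 and 26.5 units in labeled RNA and between 4.41 and 7.39 in total RNA, with a difference of 1.33 ± 0.29 (SE, limma adjusted p = 0.00664). In both, all labeled libraries lay above all total libraries, as in 14.3% of all transcripts, and the reverse was found in 0 of the 49 and in 0.184% of all.

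The other 2 lie near the end of Ctcf, starting 39.4 kb into a gene of 46.4 kb. The introns of the processed transcript ENSMUST00000137735 stood at 28.4 ± 4.81 units in labeled and 16.5 ± 5.24 in total RNA (SD, n = 6), with a log2 difference of 0.79 and a limma adjusted p of 0.0376. Those of the retained-intron model ENSMUST00000156436 stood at 30.6 ± 6.84 and 15.4 ± 5.28 units, with a difference of 0.98 and a limma adjusted p of 0.0219. The 4 remaining Ctcf transcripts, with 26.1 to 43.5 kb of introns, had differences between 0.13 and 0.41 and did not pass. Over all 10 genes, the 13 tested transcripts with under 20 kb of introns had a median of 0.57 and the 36 with more had a median of 0.04. Leaving out single libraries called between 2 and 7 transcripts, with 2 without the labeled library of replicate 2 at 30 min or either total library at 15 min and 7 without the labeled library of replicate 2 at 15 min, and without the intron-rich libraries 25 of 49 were called, of which 84.0% were lower, where 28.1% of all transcripts were called and 6.30% were lower.

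The ratio of intronic to exonic RNA in a gene was compared next. In total RNA introns amounted to 2.999 ± 0.640% of the exonic value for Smc3 (SD, n = 6), 3.25 ± 0.725% for Smc1a, 3.52 ± 0.618% for Nipbl and 4.41 ± 0.579% for Pds5a, where the median of 10228 genes was 18.0%. Rad21, Stag1 and Pds5b stood at 5.17%, 5.46% and 7.39%, Stag2 at 11.7%, Ctcf at 16.5 ± 1.62% and Mau2 at 32.1 ± 7.09%. Mau2 was thus alone above the median, at percentile 70.9, and Smc3, Smc1a and Nipbl stood at 5.74, 6.51 and 7.49. In labeled relative to total RNA the log2 ratio was above 0 for all 10 genes, from 0.11 for Nipbl to 1.10 ± 0.42 for Rad21 (SE, limma adjusted p = 0.0634), with a median of 0.62 against 0.70 in all genes. Of the 10 genes 0 passed the test, where 25.7% of all genes were called, 25.5% higher and 0.205% lower. An unadjusted p under 0.05 in limma was found for 3 of the 10 and for 4518 of all 10228 genes. With libraries paired Rad21 passed, at an adjusted p of 0.0323, where 33.9% of all genes were called. Without the labeled library of replicate 2 at 15 min 7 of the 10 passed, where 61.2% of all genes were called, and without that of replicate 2 at 60 min 2 passed, where 38.2% were called. With quantile normalization 7 genes had values below 0. Without the intron-rich libraries Nipbl, Stag2 and Pds5a had values below 0, at -0.55, -0.45 and -0.15, and 0 of the 10 passed.

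Labeled and total RNA were also compared at each labeling time, with 2 replicates a group, and 30 min was not contrasted with 15 or 60 min. At 15, 30 and 60 min the median exonic log2 difference of the 10 genes was -0.22, -0.59 and -0.41. Rad21 stood at -0.88, -0.71 and -0.79 at the respective times, Pds5b at -0.59, -0.94 and -0.73, Stag1 at -0.54, -0.62 and -0.46, and Stag2 at -0.28, -0.89 and -0.78. Ctcf stood at -0.10, -0.32 and -0.36. With 2 libraries a group, limma called 0, 4 and 0 of 13977 genes (0%, 0.0286% and 0%) at 15, 30 and 60 min and 0 of the 10 genes at any time, while 2, 5 and 3 of the 10 had an unadjusted p under 0.05. Of all 13977 genes, 1566, 1656 and 1660 had an unadjusted p under 0.05 at these times. With single libraries left out, so that a group kept 1 library, the log2 difference of Pds5b at 60 min ran from -1.16 to -0.31. Between 60 and 15 min, 0 of the 10 genes and 0 of all genes (0%) were called in labeled exonic, labeled intronic or total exonic RNA, or for the change in the labeled to total difference, and 0 of the 10 had an unadjusted p under 0.05. The largest change in that difference was -0.49 ± 0.42 for Stag2 (SE). Across all genes, 178, 34, 108 and 162 had an unadjusted p under 0.05 in these 4 comparisons.

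Rates were derived from the same values, with the labeled exonic sum per hour as synthesis, synthesis over total intronic RNA as processing and synthesis over total exonic minus intronic RNA as degradation. As all libraries have the same sum, rates from different labeling times are not on one scale, and genes are placed by percentile at each time. Degradation rates largely restate the labeled to total differences, processing rates depend also on the ratio of intronic to exonic RNA in total RNA, and neither has a test. By degradation rate averaged over the times, Rad21 stood at percentile 0.973 of 9764 genes, Pds5b at 2.89, Pds5a at 4.82 and Stag1 at 5.33. Rad21 was low at each time, at 0.886, 3.85 and 2.34. Stag2 stood at 10.97, Nipbl at 18.2, Smc1a at 24.1, Smc3 at 27.9 and Ctcf at 36.9, and Mau2 was highest of the 10 at 71.3. Stag2 and Nipbl varied most between times, from 2.39 to 25.3 and from 6.82 to 31.4.

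By processing rate, Smc3, Smc1a and Nipbl stood at percentiles 93.4, 92.2 and 91.1 of 10227 genes, Pds5a at 84.3, and Stag1, Rad21 and Pds5b at 79.0, 75.8 and 65.0. Stag2 at 50.5, Ctcf at 48.9 and Mau2 at 30.7 stood lower.

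The share of uridine, which 4sU replaces, differed among the coding transcripts shown above. Stag2 had 29.9% uridine and Pds5b 28.0%, at percentiles 93.7 and 84.8 of the 20631 coding transcripts of GENCODE M1 that passed the exonic filter, whose median was 24.2%. Smc1a was lowest at 21.6%, and the other 7 ranged from 23.7% to 25.6%. Coding sequences ran from 1857 nucleotides in Mau2 and 1908 in Rad21 to 8397 in Nipbl, leaving out the partial Stag1 model. Whether uridine content bears on the labeled to total difference was not tested.

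Genes with an exonic pattern most like that of Ctcf over 12 libraries were Dcp1a, Rcor2, Ing5, Gja1 and Hmgxb4, with Pearson correlations from 0.936 to 0.954 of log2 values among 13976 other genes. Part of such likeness is the shared contrast between labeled and total libraries and the library with high Ctcf. Of the cohesin genes Rad21 was nearest, at 0.757 and rank 874, and Mau2 farthest, at -0.04 and rank 8968. Among the other members, the highest correlations over the same 12 libraries were those of Stag1 with Pds5b (0.964) and of Stag2 with Pds5a (0.962), followed by Pds5a with Pds5b (0.949).

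The 10 genes lie on autosomes 5, 8, 9, 15 and 19 and on the X chromosome in GRCm38, with Stag2 at chrX:42149297-42277186, Smc1a at chrX:152016428-152061973, Rad21 at chr15:51962604-51993538 and Nipbl at chr15:8289824-8465315. Ctcf lies at chr8:105636474-105682922, Mau2 at chr8:70014527-70042734, Stag1 at chr9:100597709-100958544, Smc3 at chr19:53600396-53645831, Pds5a at chr5:65605719-65698236 and Pds5b at chr5:150673713-150810669. In GENCODE M1, pseudogenes on the opposite strand overlap Ctcf, Smc1a and Stag1, and a small RNA gene on the opposite strand overlaps Mau2, Pds5a and Pds5b. Whether strand was used in quantification is not given in the sources used here, so reads of these partners cannot be told apart from those of the genes.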

How the data were processed

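Labeled and total RNA of mESCs was measured in 12 libraries, 6 groups of 2. The authors removed rRNA reads with STAR 2.5.0, aligned the rest to exonic and intronic sequences and quantified them with RSEM, with mm10 in the submitters' processing notes. The deposited values are signal per length for exons and introns of each transcript, scaled to a nearly equal sum per library, with no value at or under 1. The scaling is not given in the sources used here, and the values are not counts, so the depth of each library cannot be read from them, and a change in total RNA content cannot be seen.

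Missing values were taken as 0 and transcripts were summed per gene by GENCODE M1. Features with a mean of at least 20 (exonic) or 5 (intronic) were tested on log2(value + 1) with limma 3.58.1 in R 4.3.3, with a mean-variance trend, labeling time as a covariate and Benjamini-Hochberg adjustment over all features at 0.05. Fold changes are on this scale and understate changes of low genes. Contrasts by time used 6 group means. The fit was tested on simulated data. Other steps used Python 3.11.15. Alternatives were another pseudocount, no filter, values in all libraries, quantile normalization, no trend, a replicate block, protein-coding transcripts and libraries left out.

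The members and lists were chosen with earlier results of these data known. From the list of cohesin regulators 1 gene is not reported here and was left out of its counts. Named from each other list were the 2 highest and 2 lowest genes by exonic difference, from the members the most abundant transcript and any called, with exonic calls mostly given as counts, and the 5 genes most correlated with Ctcf. The labels number the biological replicates, which they describe as parts of a divided culture, and libraries of one time and number were paired on that ground. Their deviations from group means correlated by -0.07, 0.05 and -0.19 for exons and 0.07, 0.07 and -0.26 for introns at 15, 30 and 60 min.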

Additional observations from a re-analysis of the deposited data

Results flagged for a closer look

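The exonic sum of Ctcf in labeled RNA was 1050.54 units in replicate 2 at 15 min, far from the other 5 labeled libraries, which lay between 708 and 809. Its gap to the next library was 0.707 of the range of the 6. Of 40 groups of 6 libraries, exonic and intronic sums of the 10 genes in labeled and total RNA, this was the single one with such a gap, where chance gives about 1 in 20 groups, or 2.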

How the results depend on the processing

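With the replicate block (libraries paired), exonic calls were 1270 genes, 3 of the 10 members, 4470 transcripts and 7 member transcripts. This setting called 3472 genes and 1 member for the intron to exon ratio, and 0 genes at 30 min. No other call of a member gene in the comparisons of labeled and total RNA changed. With quantile normalization, intronic calls were 1685 genes, 3 members, 7275 transcripts and 25 member transcripts, and ratio calls were 1026 genes. Without the intron-rich libraries, 4117 genes, 3 members, 14481 transcripts and 25 member transcripts were called for introns, and 1720 genes for the ratio. A pseudocount of 20 called 2 of the 10 members for the ratio, where 28.0% of 10228 genes were called. In the contrasts by time it called 3, 7 and 1 genes at 15, 30 and 60 min. It called 4 for total RNA at 60 against 15 min and 4 for the change with time. With no filter these were 9, 16, 6, 8 and 8 genes, and 6 for labeled RNA at 60 against 15 min. With no trend they were 5 at 15 min, 2 at 60 min, 4 for total RNA, 5 for the change and 2 for labeled RNA.

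With libraries left out, calls ranged from 0 to 2931 genes and 0 to 6 members for exons, 1833 to 8052 and 0 to 2 for introns, 435 to 6263 and 0 to 7 for the ratio, 0 to 10439 transcripts and 0 to 24 member transcripts for exons, and 5229 to 23579 and 2 to 7 for introns. By time they ranged from 0 to 3 genes at 15 min, 0 to 27 at 30 min, 0 to 520 (0 to 1 members) at 60 min, 0 to 8 for labeled exonic and 0 to 1 for labeled intronic RNA at 60 against 15 min, 0 to 7 for total RNA and 0 to 11 for the change. Where a group kept 1 library, it was assumed to vary like the others. Of 1750 alternative values of single member genes and transcripts, 41 lost and 36 gained a call, 175 changed sign with neither value past the threshold, and 0 reversed a call. The cause of these changes was not tested.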
